A study of Mus musculus with 4 samples.

Results

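The data describe 10 genes that code for signalling peptides, or for a receptor of such a peptide, in sorted cells of the embryonic mouse neural tube with and without a working copy of Prdm13. They were 9 neuropeptide precursors (Adcyap1, Nms, Tac1, Sst, Cck, Nts, Npy, Pdyn and Penk) and Adcyap1r1, the receptor of the peptide made from Adcyap1. All 10 were picked by gene symbol from the 24421 genes of the expression table, with their difference in RPKM between the genotypes already known, so their values in that contrast are a description and carry no test. The cells were GFP-positive cells collected by flow sorting from dissociated neural tubes at E11.5. Both genotypes carried a GFP reporter inserted in the first exon of Prdm13, which disrupts the gene. Prdm13 Het cells (Prdm13 GFP/+) retained 1 intact allele and served as the control, whereas Prdm13 Homo cells (Prdm13 GFP/GFP) had none. The mice were of a mixed ICR and C57Bl/6 background. RNA of several embryos of a genotype was combined into 1 pool and sequenced as 2 libraries, giving 4 libraries in all. Differences between libraries of a genotype are therefore technical, and the spread between embryos was not measured.

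A neuropeptide is cut from a larger precursor protein, packed into dense-core vesicles and released to act on G-protein-coupled receptors. In the mature dorsal horn of the spinal cord, peptides separate classes of interneurons. Somatostatin (Sst), substance P (Tac1), cholecystokinin (Cck) and neurotensin (Nts) mark mainly excitatory neurons, neuropeptide Y (Npy) and dynorphin (Pdyn) mark mainly inhibitory ones, and enkephalin (Penk) is made by both. PACAP, the product of Adcyap1, acts through PAC1 (Adcyap1r1), which raises cyclic AMP, and neuromedin S (Nms) acts on the receptors of neuromedin U. PRDM13 is a zinc-finger protein that takes part in the choice between inhibitory and excitatory fates in the dorsal neural tube.

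Upstream sequences of the members are given because PRDM13 is known to act with basic helix-loop-helix factors, whose binding motif is the E-box CANNTG. The paper placed PRDM13 binding sites largely away from start sites, so windows next to a start do not bear on most of them. RefSeq promoter entries (GRCm38.p6) were found for 9 of the 10 members, Penk being the exception, and the 250 bases before each start site were searched on both strands. Whole windows were kept for display only where they overlapped no annotated exon and no RefSeq gene, which left Nms, Npy and 1 Pdyn entry. Every window with an E-box had such an overlap and is not shown whole. Of those left, Nms, which was higher in Homo, and Npy, which was lower, are shown. Neither held an E-box, so both are in lower case throughout. The Nms sequence lay at chr1:38938899-38939148 on the plus strand and the Npy sequence at chr6:49822460-49822709 on the plus strand.
Nms: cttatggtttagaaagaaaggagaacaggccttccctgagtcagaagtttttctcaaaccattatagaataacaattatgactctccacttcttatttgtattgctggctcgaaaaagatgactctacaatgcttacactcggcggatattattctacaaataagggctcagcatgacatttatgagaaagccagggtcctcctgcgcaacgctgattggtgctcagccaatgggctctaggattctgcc
Npy: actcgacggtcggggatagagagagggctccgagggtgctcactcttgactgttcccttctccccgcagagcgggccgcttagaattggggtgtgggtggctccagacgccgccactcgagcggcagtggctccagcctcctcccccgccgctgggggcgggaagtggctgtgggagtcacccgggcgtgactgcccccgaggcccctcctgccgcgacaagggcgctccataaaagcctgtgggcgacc
An E-box was present upstream of Cck, Nts, Sst and Tac1, and absent from the windows of Adcyap1, Adcyap1r1, Nms, Npy and Pdyn. Across all 32851 RefSeq promoter entries, 66.2% held at least 1 such motif in the same window, beside 4 of the 9 members with an entry. The E-box form CAGCTG was found only at Nts, 186 bases before its start, against 13.0% of all entries, and the form CATCTG at Cck and Tac1, against 14.4%. These forms are subsets of CANNTG, so the matches overlap. The cyclic AMP response element TGACGTCA was found at 1 member, Sst, beginning 48 bases before its start site (chr16:23890874-23890903, minus strand, element in capitals), and in 1.55% of all entries.
Sst: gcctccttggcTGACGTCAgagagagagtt
The start site used lay inside the annotated span of the gene for Sst, Adcyap1, Adcyap1r1 and 1 of the 2 Pdyn entries, so those windows precede that start and not the whole gene. Of the 250 bases, 114 of the Sst window, 182 of the Tac1 window, 68 of the Nts window and 151 of 1 Adcyap1 window overlapped GENCODE exons. The motif matches describe letters in a window and say nothing of binding in these cells.

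The libraries held between 11846415 and 18840133 reads assigned to genes, as recovered from the steps in the RPKM values, and libraries of the same genotype differed by a median of 0.078 on the log2 scale in both genotypes. Prdm13 itself measured 113.9 and 126.8 RPKM in Het and 309.5 and 324.5 RPKM in Homo (log2 fold change 1.40, SE 0.06, adjusted p = 3.63e-05, limma), so its transcript was higher where the protein is disrupted, and reads from the GFP allele still count toward it. Across the 12046 genes with a mean of at least 1 RPKM in either genotype, limma with Benjamini-Hochberg adjustment called 440 genes higher (3.65%) and 322 genes lower (2.67%) in Homo, or 6.33% in either direction. A call required at least a 1.5-fold change besides an adjusted p below 0.05. The median change over all tested genes was 0.010 on the log2 scale. All 7 markers of the dorsal excitatory lineage were higher in Homo, with a summed level of 30.4 and 33.3 RPKM in Het against 195 and 201 RPKM in Homo, and all 8 markers of the dorsal inhibitory lineage were lower, with 523 and 561 RPKM against 99.5 and 106 RPKM. In bulk RNA, a change in the number of cells of a kind and a change in transcript per cell cannot be told apart.

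The members spanned a wide range of levels, with Sst far above the rest. In Het the order by mean RPKM was Sst (124.9), Npy (9.70), Adcyap1r1 (8.54), Adcyap1 (1.87), Nts (0.540), Pdyn (0.226), Cck (0.210), Tac1 (0.205), Nms (0.179) and Penk (0.158). Among the last 5 genes of that order, neighbours overlapped between libraries, and Npy exceeded Adcyap1r1 by less than the SD of Npy (1.53 RPKM). In Homo the order was Sst (74.4), Adcyap1r1 (25.5), Adcyap1 (9.59), Npy (3.73), Nms (3.69), Tac1 (1.99), Cck (0.466), Penk (0.161), Pdyn (0.0529) and Nts, which was listed at 0. Npy and Nms overlapped in Homo and could not be ordered. Thus Adcyap1 stood below Npy in Het and above it in Homo.

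**Figure D1:**
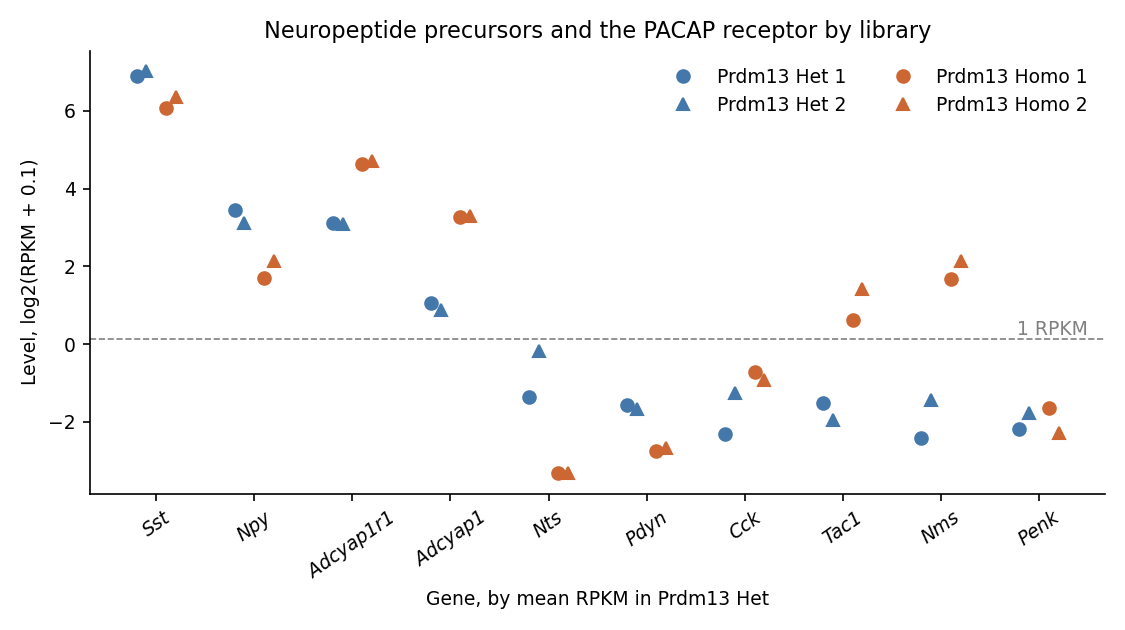
Level of each of the 10 genes in each library, as log2(RPKM + 0.1), with genes ordered by their mean in Prdm13 Het and the dashed line at 1 RPKM. Circles are library 1 and triangles library 2 of a genotype; Homo points lie above Het points for Adcyap1r1, Adcyap1, Cck, Tac1 and Nms, below them for Sst, Npy, Nts and Pdyn, and the genotypes overlap for Penk.

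PACAP and its receptor were both higher without PRDM13. Adcyap1 (gene ID 11516, chr17:93198245-93206541 in GRCm38) measured 1.98 and 1.75 RPKM in the Het libraries and 9.47 and 9.72 RPKM in the Homo libraries. Both Homo libraries were above both Het libraries, and the means of 1.87 ± 0.166 and 9.59 ± 0.176 RPKM (SD, n = 2 libraries each) differed by 5.14-fold. On the log2(RPKM + 0.1) scale the difference was 2.30 with a standard error of 0.10. Adcyap1r1 (gene ID 11517, chr6:55451501-55501455) measured 8.61 and 8.47 RPKM in Het and 24.7 and 26.2 RPKM in Homo. Its libraries were tightly grouped within each genotype, and the means of 8.54 ± 0.0978 and 25.5 ± 1.06 RPKM differed by 2.98-fold, or 1.57 on the log2 scale (SE 0.06). Of the 2 genes, the receptor was the more abundant per length of transcript in each library. The annotated span of Adcyap1 overlaps that of the long noncoding RNA Gm32465, and the strand setting of the counting is not given in the sources used here, so reads of the 2 cannot be told apart where exons coincide.

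Nms had the largest fitted difference of the 6 members tested. It measured 0.0863 and 0.273 RPKM in Het and 3.07 and 4.31 RPKM in Homo, corresponding to 1 and 5 reads in Het against 50 and 59 reads in Homo. Few reads lay behind the Het values, and the rate of reads was 18.1-fold higher in Homo with a 95% interval of 8.07 to 50.5 (exact Clopper-Pearson on the reads, covering counting error alone). The fitted difference was 3.83 on the log2(RPKM + 0.1) scale (SE 0.39), and it ranged from 3.33 to 4.33 when 1 library was left out. With a pseudocount of 1 it was 1.98, since the Het level is below that pseudocount. Nms lies at chr1:38939149-38950276 (gene ID 433292).

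The peptides of excitatory dorsal horn neurons did not move together. Sst (gene ID 20604, chr16:23889573-23891342), which encodes the inhibitory peptide somatostatin, measured 119.6 and 130.2 RPKM in Het and 67.6 and 81.3 RPKM in Homo. Both Homo libraries were below both Het libraries, and the mean fell from 124.9 ± 7.5 to 74.4 ± 9.7 RPKM (SD, n = 2), a difference of -0.75 on the log2 scale (SE 0.09). Sst made up 89.6% and 91.4% of the summed RPKM of the 9 precursors in Het and 79.1% in each Homo library. Tac1 (gene ID 21333, chr6:7555061-7562978), the precursor of substance P and neurokinin A, went the other way, with 0.251 and 0.158 RPKM in Het and 1.43 and 2.55 RPKM in Homo. Its reads were 3 in each Het library and 24 and 36 in the Homo libraries, a 9.99-fold higher rate in Homo (95% interval 4.33 to 28.3), and the fitted difference was 2.74 (SE 0.39), or 1.29 with a pseudocount of 1.

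The other 2 peptides of this group lay below 1 RPKM in both genotypes. Cck (gene ID 12424, chr9:121489824-121495694), the precursor of cholecystokinin, measured 0.101 and 0.320 RPKM in Het and 0.504 and 0.428 RPKM in Homo, from 1 and 5 reads against 7 and 5 reads. The rate of reads was 2.00-fold higher in Homo, with an interval for counting error of 0.694 to 6.49. The span of Cck also overlaps that of a long noncoding RNA, Gm38661. Nts (gene ID 67405, chr10:102481756-102490418), the precursor of neurotensin, measured 0.293 and 0.786 RPKM in Het and was listed at 0 in both Homo libraries. It had 4 and 17 reads in Het, with the second library carrying most of them, and none in Homo. Against a floor of 3 reads in each Homo library, Nts was at least 3.5-fold lower in Homo, a bound that was 1.72 from Het library 1 alone and 4.63 from Het library 2 alone. Of the 4 excitatory peptides, 2 had a higher and 2 a lower level in Homo, with a median difference of 0.10 on the log2 scale. With a pseudocount of 1 that median was -0.16. The excitatory and inhibitory labels come from the mature dorsal horn, and whether they hold in these E11.5 cells was not tested.

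Both peptides of inhibitory neurons were at lower levels in Homo. Npy (gene ID 109648, chr6:49822710-49829507) measured 10.8 and 8.61 RPKM in Het and 3.16 and 4.29 RPKM in Homo. The genotypes did not overlap, and the mean fell from 9.70 ± 1.53 to 3.73 ± 0.801 RPKM (SD, n = 2), a difference of -1.36 on the log2 scale (SE 0.16) that ranged from -1.58 to -1.15 when 1 library was left out. Pdyn (gene ID 18610, chr2:129686549-129699938), the precursor of dynorphins, measured 0.237 and 0.214 RPKM in Het and 0.0483 and 0.0574 RPKM in Homo. Its 7 and 10 reads in Het stood against 2 reads in each Homo library, a rate ratio of Homo to Het of 0.235 with an interval of 0.0575 to 0.720. The difference for Pdyn was -1.09 on the log2(RPKM + 0.1) scale, and -0.22 with a pseudocount of 1, so its size depends on the pseudocount. The median over this pair was -1.23. Penk (gene ID 18619, chr4:4133536-4138815), the enkephalin precursor, measured 0.122 and 0.193 RPKM in Het and 0.218 and 0.104 RPKM in Homo, with 7 reads in each genotype. The Penk libraries overlapped, and the interval of the rate ratio for counting error was 0.299 to 3.34.

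**Figure D2:**
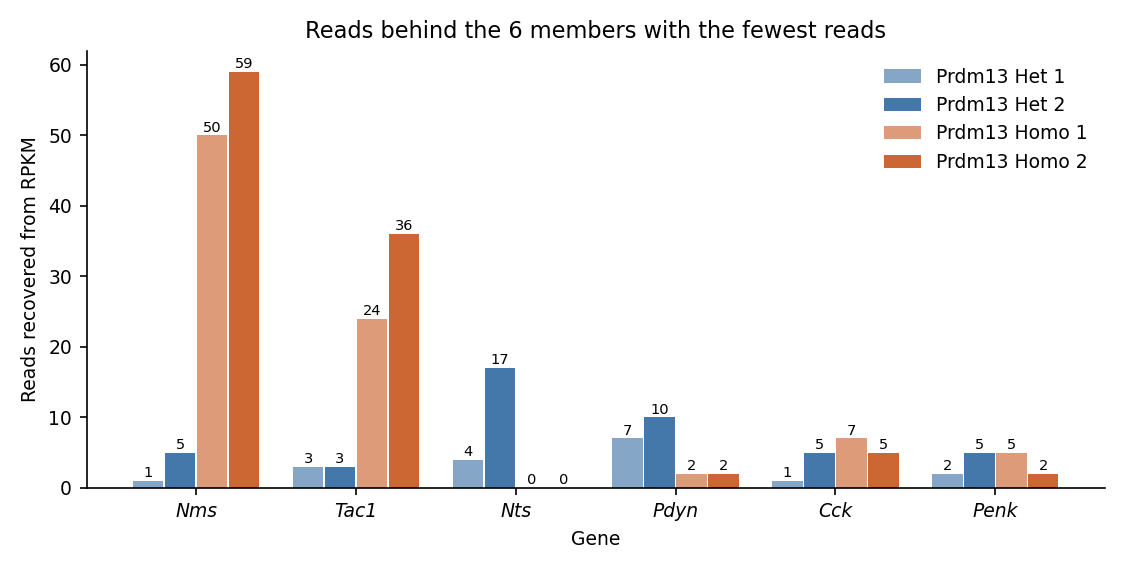
Reads recovered from the RPKM values for the 6 members with the fewest reads, with 1 bar per library (Het in blue, Homo in orange) and the read number above it. Nms (50 and 59 reads) and Tac1 (24 and 36 reads) were well covered in Homo alone, Nts had reads in Het alone, and Pdyn, Cck and Penk had 10 reads or fewer in every library.

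Of the 10 members, 6 passed the filter of 1 RPKM and entered the fit across all genes. Nms and Tac1 passed it only through Homo, where they are high, so a difference was built into their entry. In that fit Adcyap1, Adcyap1r1, Nms and Tac1 were called higher, beside 3.65% of all tested genes, and Npy and Sst were called lower, beside 2.67% (6.33% in either direction). The members were chosen on this contrast, so nothing is read from these 6 calls. The libraries of the 2 genotypes did not overlap for 9 of the 10 members, as they did not for 62.1% of tested genes and 39.8% of all genes in the table, which include genes at 0 throughout. Ranked by change, Nms was number 10 and Tac1 number 33 from the top of the 12046 tested genes, Adcyap1 was number 55, Adcyap1r1 was number 127, and Npy and Sst were numbers 115 and 275 from the bottom. In each of the 4 fits that left out 1 library, the same 6 members were called. With no filter on RPKM, limma called 0 of the 10 members and 44 of 24421 genes (0.180%), while 8 of the 10 had an unadjusted p under 0.05. Voom on the recovered reads called all 6.

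**Figure D3:**
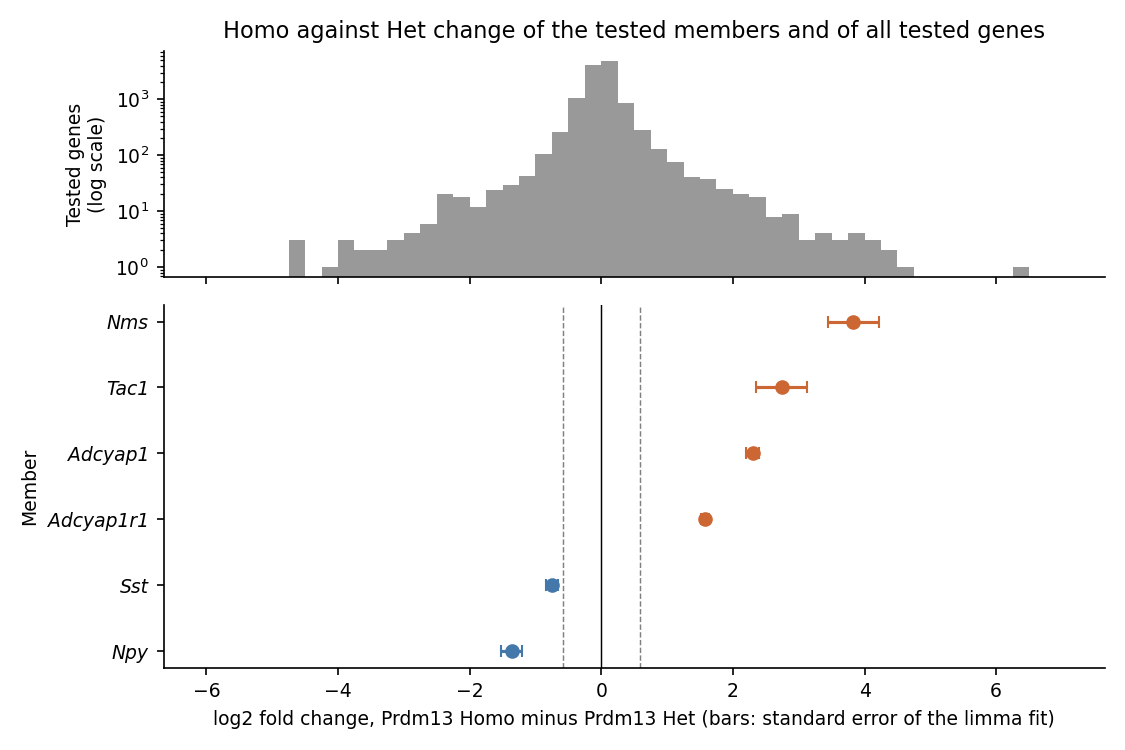
Top, number of tested genes (log scale) by log2 fold change, Prdm13 Homo minus Prdm13 Het. Bottom, the 6 tested members with the standard error of the limma fit as bars and dashed lines at a fold of 1.5; Nms (3.83), Tac1 (2.74), Adcyap1 (2.30) and Adcyap1r1 (1.57) lay above 0, and Sst (-0.75) and Npy (-1.36) below.

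The genes whose pattern over the 4 libraries was most like that of a member were sought by the largest difference in any library between log2(RPKM + 0.1) values centred on each gene's mean. For Adcyap1 these were Lamb1 (0.086), a laminin chain, Fam46c (0.148) and Adamts5 (0.159), a secreted protease. For Adcyap1r1 they were Chrna4 (0.028), a nicotinic acetylcholine receptor subunit, Scn3b (0.056), a sodium channel subunit, and Vstm2l (0.056). Sst was most like Glra2 (0.021), a glycine receptor subunit, Fbn2 (0.040), a fibrillin, and Hdac9 (0.044), a histone deacetylase. Npy had looser neighbours in Sec14l5 (0.172), Sesn2 (0.176) and Brinp1 (0.199). With 4 libraries in 2 genotypes, genes with a like difference between genotypes score as alike, and 12 tested genes lay within 0.1 of Adcyap1r1 in every library.

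Most other neuropeptide precursors lay below 1 RPKM in these cells. Of 47 further precursor genes, 10 passed the filter and 12 were listed at 0 in all libraries. In Homo, 2 of the 10 fell and 1 rose, beside 2.67% and 3.65% of all tested genes, and the median over the 10 was 0.05 on the log2 scale, beside 0.010 over all tested genes. Cartpt, which encodes the CART peptides and was the most abundant of the list, measured 24.2 and 24.0 RPKM in Het and 6.75 and 5.85 RPKM in Homo. It fell by 1.92 on the log2 scale (SE 0.08, adjusted p = 2.77e-05 by limma), more than Npy or Sst in the same libraries. Pnoc, the nociceptin precursor, measured 2.96 and 3.54 RPKM against 2.00 and 1.90 RPKM (log2 fold change -0.71, adjusted p = 0.0144 by limma). Npff, the precursor of neuropeptide FF, measured 1.21 and 1.58 RPKM against 2.95 and 2.55 RPKM (log2 fold change 0.94, adjusted p = 0.0138 by limma). The Cartpt call held when any 1 library was left out. Pnoc was not called without Het replicate 2 (limma adjusted p = 0.0808), Homo replicate 1 (0.0697) or Homo replicate 2 (0.106), and Npff was not called without Het replicate 1 (0.0566), Homo replicate 1 (0.0961) or Homo replicate 2 (0.0797).

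Few receptors of the member peptides, apart from Adcyap1r1, were expressed. Of 25 receptor genes in the table, 3 passed the filter, 1 of them rose and none fell, beside 6.33% of all tested genes called in either direction, with a median of -0.04. Sstr2, a somatostatin receptor, rose from 13.4 and 13.3 RPKM in Het to 25.4 and 28.5 RPKM in Homo (log2 fold change 1.01, SE 0.07, adjusted p = 0.00026 by limma), so the receptor was higher in the libraries in which its ligand Sst was lower. Sort1, which codes for sortilin and also binds neurotensin, was the most abundant, at 44.8 and 43.8 RPKM against 39.2 and 38.8 RPKM, and its change of -0.18 was below the fold threshold. The third, Vipr2, a receptor shared by VIP and PACAP, measured 0.996 and 1.5 RPKM against 1.05 and 1.34 RPKM and was not called. Vipr1, the other shared receptor, stayed at or below 0.314 RPKM. Npy1r, a receptor of neuropeptide Y, reached 0.880 RPKM at most, and the receptors of neuromedin S (Nmur1 and Nmur2), of substance P (Tacr1) and of the opioid peptides (Oprm1, Oprd1 and Oprk1) were at or below 0.175 RPKM in every library. Of the receptors for PACAP, Adcyap1r1 thus had by far the highest level in both genotypes.

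The pathway below the PACAP receptor was broadly expressed, and most of its genes were not called. Of 26 genes of cyclic AMP signalling 23 were tested, 1 rose, 1 fell, and the median was -0.00. With 6.33% of all tested genes called, these 2 calls do not set the list apart. Gnas, which encodes the stimulatory G-protein subunit, was the most abundant, at 126 and 128 RPKM in Het and 137 and 143 RPKM in Homo (log2 fold change 0.14, adjusted p = 0.0717 by limma). Rapgef4, a cyclic AMP-activated exchange factor, rose from 0.471 and 0.373 RPKM to 1.32 and 1.36 RPKM (log2 fold change 1.47, adjusted p = 0.0149 by limma). Like Nms and Tac1, it passed the filter only through Homo, where it is high. A difference was thus built into its entry, and nothing is read from its call. Adcy2, an adenylyl cyclase, fell from 3.45 and 3.37 RPKM to 2.38 and 2.08 RPKM (log2 fold change -0.59, adjusted p = 0.0175 by limma). Rapgef4 was not called without Homo replicate 1 (limma adjusted p = 0.0729) or Homo replicate 2 (0.0718), and Adcy2 was not called without any of Het replicate 1 (0.0953), Het replicate 2 (0.0851), Homo replicate 1 (0.0507) or Homo replicate 2 (0.110).

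Most tested genes of the machinery that processes and packs peptides were not called between the genotypes. Of 27 genes 19 were tested, 1 rose and none fell, and the median was 0.00. That count is also near the 6.33% of all tested genes called. A gene not called was not thereby unchanged. At an unadjusted p under 0.05 were 10 of the 19, beside 4109 of all 12046 tested genes. Ptprn (0.52, adjusted p = 0.00431 by limma) and Pcsk6 (-0.50, 0.00964) missed the fold threshold alone. Cadps2, which passed the filter only through Het, changed by -1.04 (limma adjusted p = 0.0611). Syt4, a synaptotagmin found on dense-core vesicles, rose from 4.76 and 4.63 RPKM to 12.2 and 11.8 RPKM (log2 fold change 1.33, SE 0.07, adjusted p = 6.21e-05 by limma). Cpe, which trims peptides after cleavage and was the most abundant of the list, measured 101 RPKM in both Het libraries and 107 and 111 RPKM in Homo (adjusted p = 0.148 by limma). Of the 7 genes called in these lists, Syt4 alone was also called with no filter on RPKM (limma adjusted p = 0.0476, against 0.0619 to 0.193 for the others), and a pseudocount of 1 took Pnoc (-0.53) and Adcy2 (-0.45) below the fold threshold.

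**Figure D4:**
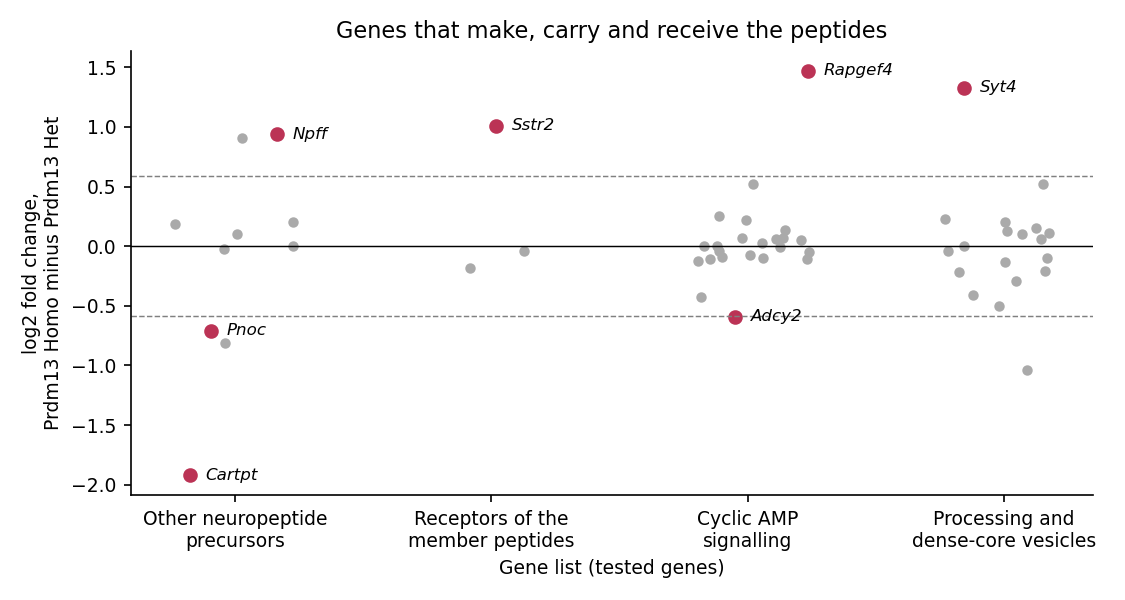
Log2 fold change, Prdm13 Homo minus Prdm13 Het, of each tested gene in 4 lists, with called genes in red and dashed lines at a fold of 1.5 (points are spread sideways at random within a list). Called genes were Cartpt (-1.92), Pnoc (-0.71) and Npff (0.94) among precursors, Sstr2 (1.01) among receptors, Rapgef4 (1.47) and Adcy2 (-0.59) in cyclic AMP signalling, and Syt4 (1.33) in processing.

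Markers of other cells that the sort could hold were measured beside the members, because sensory and autonomic neurons also make peptides. Of 10 dorsal root ganglion markers, 8 had a mean below 1 RPKM, among them Avil, Runx1, Runx3 and Scn10a. Apart from Tubb3, which all neurons express, the summed level of that list was 4.30 and 4.10 RPKM in Het and 9.0 and 10.1 RPKM in Homo. Among 8 sympathoadrenal markers, Th rose from 4.48 and 4.50 RPKM to 7.98 and 7.28 RPKM (adjusted p = 0.00168 by limma), while Dbh, Hand2 and Gata3 stayed at or below 0.128 RPKM. The summed level of those 8 genes was 79.2 and 85.7 RPKM in Het and 102 and 106 RPKM in Homo. Among 7 neural crest and glial markers, Foxd3 fell from 10.1 and 12.8 RPKM to 4.2 and 4.25 RPKM (adjusted p = 0.000527 by limma), and the summed level without Fabp7 was 12.7 and 15.7 RPKM against 7.48 and 7.59 RPKM. Of the 9 erythroid, 6 endothelial and 7 mesenchymal markers, 3, 1 and 1 passed the filter and were tested, and none of these was called. The summed levels of the whole lists were 47.2 to 49.7, 3.67 to 4.59 and 3.70 to 5.27 RPKM over the 4 libraries. The part of these cells in the levels of the peptide genes was not tested. Of 12 pan-neuronal genes, 4 rose, including Nefl (42.0 and 45.5 RPKM to 118 and 132 RPKM), and 1 fell, Snap25 (24.4 and 23.7 RPKM to 15.4 and 15.6 RPKM), beside 6.33% of all tested genes called.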

How the data were processed

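GFP-positive cells of E11.5 neural tubes were profiled by polyA RNA-seq in 4 libraries, 2 for Prdm13 Het and 2 for Prdm13 Homo, with groups taken from the sample labels. The authors deposited RPKM values per RefSeq gene. Per the submitters' processing notes, reads were processed with CASAVA and aligned to mm10 with TopHat2 (2.1.0), and edgeR (3.6.8) was used. Per the methods, reads over exons were counted with featureCounts and TMM-normalised.

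Here, limma (3.58.1; lmFit, eBayes with a trend, R 4.3.3) was run on log2(RPKM + 0.1) for the 12046 genes with a mean of at least 1 RPKM in either genotype, two-sided, with Benjamini-Hochberg adjustment; a fold on this scale understates the change of low genes. It replaced the count test of the study because the table holds no counts. Calls needed at least a 1.5-fold change besides an adjusted p below 0.05. P-values measure the spread between libraries of 1 pool, not between embryos, and an exact permutation test of 2 against 2 libraries cannot go below 0.333. Whole reads were recovered from the steps in RPKM for 99.96% of the 19200 genes above 0 (within 0.01 reads). Of 17496 solved transcript lengths with an annotated one, 71.9% lay within 5% of it, as did those of Nms, Cck and Penk; those of Tac1, Nts and Pdyn were off by -15.9%, -5.4% and 6.7%. The recovered reads of each library sum to a few percent above the library size that the RPKM steps imply, and the cause was not tested. Where several transcript lengths were possible, the one near an annotated length or else the smallest was taken, and for Adcyap1 a multiple of the stated reads is possible, so no reads are printed for it. Intervals (95%) and the floor of 3 reads cover counting error only. Over all genes, libraries of a genotype differed by more than counting error (chi-square per degree of freedom 2.29 in Het and 2.22 in Homo). The intervals may thus be too narrow for the technical spread, and the excess in genes with few reads was not tested. The recovery and the fit were tested on simulated data. Gene coordinates and promoter entries came from RefSeq, GRCm38.p6.

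The members and the 4 lists (other precursors, receptors, cyclic AMP, processing), and the cell type markers, were chosen with earlier results of these data known. Named from each list were the called genes, at most 6 in each direction, and the gene with the highest mean RPKM; named as most like Adcyap1, Adcyap1r1, Sst and Npy were the 3 closest genes for each. Vipr1, Vipr2, Npy1r and the receptors under 1 RPKM, Ptprn, Pcsk6 and Cadps2, and the single markers, were named after their values were seen. Alternatives were 2 other pseudocounts, 2 other filters, 2 scalings, no trend, voom on recovered reads, a replicate block, and leaving out each library. Values of some single marker genes are not reported here.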

Additional observations from a re-analysis of the deposited data

How the results depend on the processing

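The 6 called members kept their direction in all 78 combinations with the 13 alternatives and their call in 72; the other 6 are the fit with no filter on RPKM, in which limma called 44 genes and 0 members, 0 precursors, 0 receptors and 0 cyclic AMP genes (8, 5, 3 and 9 at an unadjusted p under 0.05); the cause was not tested. Leaving out 1 library gave 470 (without Homo replicate 2) to 687 genes called against 762, 6 members each time, 1 to 2 other precursors against 3, 1 receptor, 0 to 1 cyclic AMP genes against 2, and 1 to 2 processing genes against 1; the lone library left in a genotype was assumed to vary like the other pair. The genes called with a library left out were not always those of the main fit. Without Homo replicate 2 the cyclic AMP gene was Prkar1b, and without Homo replicate 1 the second processing gene was Ptprn. With a pseudocount of 1, 1 cyclic AMP gene was called. With the filter applied to both libraries of a genotype, with eBayes without a trend and with voom, 2 processing genes were called, the second being Cadps2. The median of Npy and Pdyn was -0.70 with a pseudocount of 1 and -1.65 with 0.01, against -1.23, because Pdyn lies near the pseudocount. The median of the excitatory peptides ranged from -0.19 to 0.40 when 1 library was left out, around 0.10. Same-numbered libraries shared only a number (correlation of their deviations 0.047, from 2 pairs), and with the replicate block 801 genes, 6 members and 4 other precursors (Cort added) were called. Few reads limit Nts, Pdyn, Cck and Penk.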
